A study of Mus musculus with 24 samples.

Results

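Transcripts of 10 imprinted genes (Peg3, Zim1, Usp29, Peg10, Sgce, Mest, Grb10, Plagl1, Impact and Nnat) were followed by RNA sequencing in mouse embryonic stem (ES) cells of 6 genotypes. The genes were taken by symbol, each matched 1 entry of the 37310 in each deposited table, and all 10 passed the filter on low values in both. Wild-type cells (WT) were compared with cells lacking Smchd1 (Smchd1 KO), cells lacking Dux (Dux KO) and cells lacking both (Double KO). Tet triple knockout cells (Tet TKO) were compared with Tet triple knockout cells that also lack Smchd1 (quad KO). Tet TKO and quad KO therefore share the loss of the Tet genes. There were 3 biological replicates per genotype and 24 libraries, because the replicates of WT and of Smchd1 KO were each run 2 times on the sequencer. All cells were grown without feeders in serum and LIF. Whether replicates of a genotype were separate clones or separate cultures of 1 clone, and how the knockouts were made, is not given in the sources used here, so the p-values measure the spread between these samples only. Levels are in CPM, counts per 1e6 counts. One table holds WT and the knockouts of Smchd1, Dux or both, and a separate table has quad KO and Tet TKO. The tables were normalized separately, so no test crosses them.

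An imprinted gene is transcribed mainly from the copy of one parent, because DNA methylation laid down in the egg or sperm marks an imprinting control region near it. ZFP57, a zinc finger protein that binds the methylated hexamer TGCCGC, and its partner TRIM28 keep that methylation in ES cells. SMCHD1, a noncanonical SMC protein bound to chromatin, acts in X inactivation and at some imprinted clusters. DUX is a homeobox transcription factor of the early embryo, and TET enzymes oxidise 5-methylcytosine. Peg3, Usp29, Peg10, Sgce, Mest, Plagl1, Impact and Nnat are known as paternally expressed genes. Zim1 and, in most tissues, Grb10 are known as maternally expressed. The tables hold summed reads of both copies, so parental origin was not measured.

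Promoter windows from 250 bases before to 50 bases after an annotated start were read from RefSeq (build GRCm38.p6). Impact was left out of this step, so its promoter was not searched. Peg10 and Sgce had no window. The remaining 7 genes had at least 1 window each, 10 windows in all. The first window is shown because Peg3 and Usp29 are transcribed away from each other from starts 164 bases apart. It is chr7:6730370-6730669 on the minus strand, with the stretch between the starts in capitals:
Peg3 and Usp29: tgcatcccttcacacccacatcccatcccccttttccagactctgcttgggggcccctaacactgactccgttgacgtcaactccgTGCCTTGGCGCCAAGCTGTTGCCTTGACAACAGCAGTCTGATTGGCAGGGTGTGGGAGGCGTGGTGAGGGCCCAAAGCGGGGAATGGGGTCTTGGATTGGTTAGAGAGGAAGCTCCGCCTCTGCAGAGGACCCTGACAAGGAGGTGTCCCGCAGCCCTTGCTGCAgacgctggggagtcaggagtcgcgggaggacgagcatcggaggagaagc
The next windows belong to the genes that differed most clearly between quad KO and Tet TKO and to Nnat, whose reads fell to 1 in a quad KO library. Capitals mark the hexamer TGCCGC on either strand (GCGGCA is its reverse complement). The Mest window is chr6:30737800-30738099 on the plus strand:
Mest: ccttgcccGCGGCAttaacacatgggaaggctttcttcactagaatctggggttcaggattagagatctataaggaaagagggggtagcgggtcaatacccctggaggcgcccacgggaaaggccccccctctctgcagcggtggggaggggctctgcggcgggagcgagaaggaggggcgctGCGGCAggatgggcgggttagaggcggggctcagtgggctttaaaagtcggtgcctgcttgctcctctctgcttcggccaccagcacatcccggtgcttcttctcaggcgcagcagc
The Plagl1 window is chr10:13090582-13090881 on the plus strand:
Plagl1: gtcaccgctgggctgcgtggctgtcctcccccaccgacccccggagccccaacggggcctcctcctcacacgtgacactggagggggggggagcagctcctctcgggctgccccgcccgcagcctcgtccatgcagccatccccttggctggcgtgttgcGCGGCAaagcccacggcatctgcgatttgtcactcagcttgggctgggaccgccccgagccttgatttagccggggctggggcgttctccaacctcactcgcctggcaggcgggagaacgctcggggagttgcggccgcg
The Grb10 window is chr11:12037371-12037670 on the minus strand:
Grb10: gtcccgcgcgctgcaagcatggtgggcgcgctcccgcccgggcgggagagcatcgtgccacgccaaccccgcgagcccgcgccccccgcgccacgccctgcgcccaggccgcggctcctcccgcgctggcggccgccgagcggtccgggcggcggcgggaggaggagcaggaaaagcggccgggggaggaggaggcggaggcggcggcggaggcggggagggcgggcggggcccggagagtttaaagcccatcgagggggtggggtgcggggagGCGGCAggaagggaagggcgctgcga
The Nnat window is chr2:157559828-157560127 on the plus strand:
Nnat: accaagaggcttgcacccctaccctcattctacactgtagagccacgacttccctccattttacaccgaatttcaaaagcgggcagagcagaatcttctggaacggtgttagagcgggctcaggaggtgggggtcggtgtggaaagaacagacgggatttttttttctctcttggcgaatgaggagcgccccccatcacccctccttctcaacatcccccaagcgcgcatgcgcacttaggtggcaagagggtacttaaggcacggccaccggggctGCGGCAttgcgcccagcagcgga
The hexamer was found in at least 1 window of 5 of the 7 genes, which were Nnat, Mest, Zim1, Plagl1 and Grb10. Mest and Grb10 had more than 1 window. Those at chr6:30733256-30733555 (Mest) and chr11:12027922-12028221 (Grb10), not printed, held none. Of all 32851 RefSeq promoter windows of the same length, 11.6% held it. That is a share of windows, not of genes, and it was not matched for GC content (80% in the printed Grb10 window). The printed Mest window held it at 2 places, beginning at bases 9 and 184. The shared Peg3 and Usp29 window held none. The core motif of the factor YY1, searched as GCCATNTT on both strands, was in no window of the 7 genes and in 6.05% of all windows. Methylation and binding were not measured, so these letters are a description of the windows only.

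Libraries held 11.4 to 74.45 (units of 1e6) gene reads in the table with WT and 27.33 to 34.59 in the other. Smchd1 transcripts, at 203 to 207 CPM in WT, stood at 46.2 to 76.5 CPM in Smchd1 KO and at 71.0 to 87.9 CPM in Double KO. Tet TKO held 151 to 161 CPM of it, and quad KO held 12.2 to 40.0 CPM. Dux was at 0.0410 to 0.141 CPM in WT (2 to 10 reads) and at 0.4098 to 0.847 CPM in Smchd1 KO. The libraries labelled Dux KO replicate 1 (0.447 CPM, 6 reads) and Double KO replicate 2 (0.245 CPM, 4 reads) were above every WT sample in Dux. So few reads cannot show whether Dux was intact in them. The other 4 libraries labelled Dux KO or Double KO held 0 Dux reads. Dux KO and Double KO name libraries by their labels throughout. Whether the counted part of Dux was deleted is not given in the sources used here. In Tet TKO, Tet1 was at 270.2 to 276 CPM, Tet2 at 329 to 341 and Tet3 at 43.0 to 46.0. Transcripts of Tet1, Tet2 and Tet3 were thus still present. Entries for ES cell markers were found for 7 of 8 named genes, and none was at 0 in all samples of a genotype. Their summed level was 3077 to 3113 CPM in WT and 1793 to 3277 CPM in the knockouts of the WT table. The lowest there were Double KO replicates 1 (1793) and 2 (2269). Tet TKO and quad KO samples held 1593 to 2398 CPM. Endoderm markers ran from 17.9 to 202 CPM in sum over the knockouts of the WT table, against 72.8 to 77.8 in WT, and all 6 named genes had reads in every genotype. Trophoblast markers ran there from 18.3 to 452 CPM in sum against 41.7 to 45.1 in WT, and none of the 6 was at 0 throughout a genotype, although Elf5 stayed under 0.2 CPM. The highest endoderm sums were in Smchd1 KO replicate 3 (202), Double KO replicate 1 (173) and Dux KO replicate 3 (159). The same 3 samples had the highest trophoblast sums of their genotypes (112, 452 and 140.35 CPM). Krt18 weighed most in these sums (73.8 to 386.5 CPM in Double KO, 30.0 to 33.0 in WT). Gata3 and Krt7 were also higher in Double KO than in WT, Cdx2 lay on both sides, and Eomes was lower (4.75 to 5.50 against 7.09 to 8.02). Dab2 weighed most in the endoderm sums (13.5 to 103 CPM in Smchd1 KO, 36.4 to 39.9 in WT), although all 6 endoderm genes reached above WT there. In 4 samples of the WT table a chromosome's median gene differed from WT by over 0.3 on the log2 scale. These were Smchd1 KO replicate 2, Dux KO replicate 2 and Double KO replicate 3 on chromosome 6 and Dux KO replicate 3 on chromosome 8. Double KO replicate 3 was also shifted on chromosome 1 (0.46).

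Levels per kb of exon, over the mean of 3 replicates, ordered the genes in WT from Peg10 (156 CPM per kb) through Mest (62.7), Grb10 (47.6), Impact (27.9), Nnat (9.92), Peg3 (5.98), Sgce (1.61), Plagl1 (0.473) and Usp29 (0.151) to Zim1 (0.129). In WT the replicate ranges of neighbours in this order did not overlap except for the last pair, whose CPM rest on 58 to 217 reads. Peg10 led in all 6 genotypes. Grb10 stood at 46.1 CPM per kb in Smchd1 KO, but at 15.1 in both Dux KO and Double KO.

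**Figure D1:**
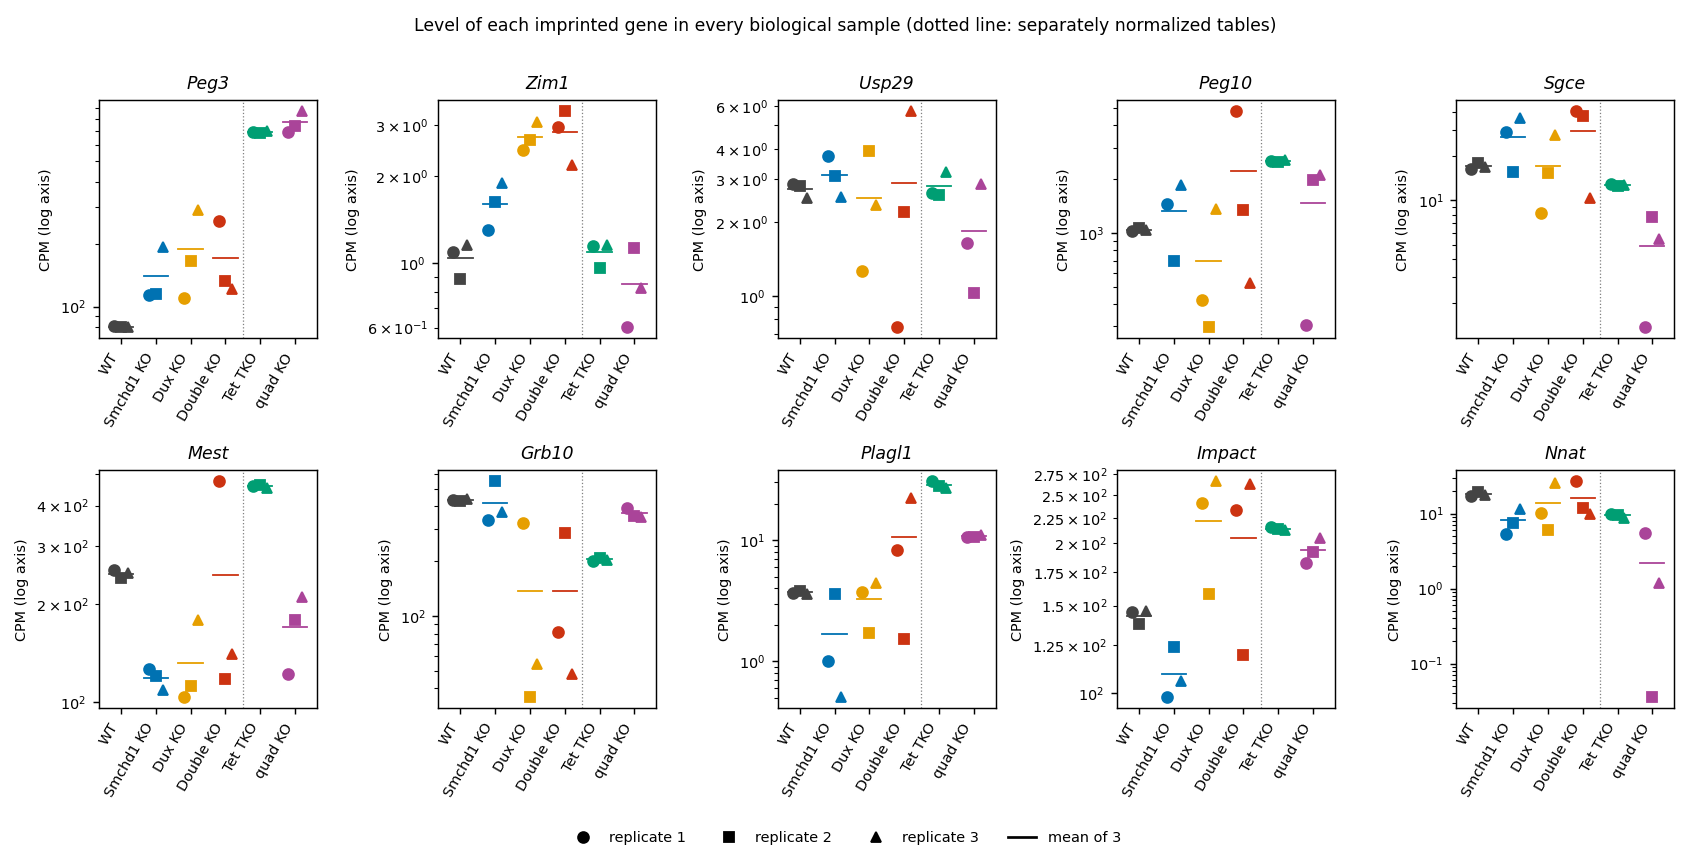
CPM of the 10 genes in each biological sample, on log axes that differ between panels. Each point is 1 replicate and each line the mean of 3. For each gene the 3 WT replicates lie close together, as do the 3 Tet TKO replicates. Many genes spread in the knockouts of Smchd1 or Dux, for Peg10 from 525 to 4804 CPM in Double KO. Plagl1 in quad KO did not (10.6 to 11.0 CPM).

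In the Peg3 domain, the maternally expressed Zim1 was the only gene of the 10 that passed in the limma fit of all 4 genotypes of the WT table. Peg3 and Zim1 both encode zinc finger proteins, and Usp29 encodes a deubiquitinase. Zim1 was at 1.10, 0.881 and 1.16 CPM in WT replicates 1, 2 and 3. It was at 1.31, 1.63 and 1.90 CPM in Smchd1 KO, where the numbers are names only. Dux KO had 2.46, 2.68 and 3.08 CPM and Double KO 2.97, 3.36 and 2.20 CPM. No WT sample overlapped any knockout group of that table. These are low levels, resting on 33 to 131 reads per sample. On the log2(CPM + 0.5) scale, Zim1 rose by 1.07 in Dux KO vs WT (95% interval 0.63 to 1.5, limma adjusted p = 0.0233). It rose by 1.10 in Double KO vs WT (interval 0.66 to 1.54, limma adjusted p = 0.0287). These comparisons share the WT samples. Both calls ended without any single WT replicate (limma adjusted p 0.112 to 0.139 in Dux KO and 0.142 to 0.191 in Double KO). Over all genes, 2 to 16 then passed in Dux KO vs WT instead of 644, and 2 to 7 in Double KO vs WT instead of 255. The Dux KO call also ended without Dux KO replicate 2 (0.0646). The Double KO call also ended without Smchd1 KO replicate 1 (0.0527) or 2 (0.0548), without Double KO replicate 1 (0.0675) or 2 (0.0563), and with no filter on low values (0.0588). In Tet TKO Zim1 was at 1.15, 0.968 and 1.16 CPM and in quad KO at 0.601, 1.13 and 0.826 CPM.

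Peg3 stood at 80.3, 79.4 and 79.4 CPM in the WT replicates. It was at 114, 114 and 193 CPM in Smchd1 KO, at 110.2, 165 and 293 CPM in Dux KO and at 259, 133 and 121.5 CPM in Double KO. All 9 knockout samples were thus above all 3 WT samples. The difference did not pass with limma in any of these genotypes. It was 0.77 in Smchd1 KO (interval 0.01 to 1.52, limma adjusted p = 0.298), 1.13 in Dux KO (interval 0.37 to 1.88, limma adjusted p = 0.0812) and 1.01 in Double KO (interval 0.25 to 1.77, limma adjusted p = 0.121). The highest Peg3 sample of each knockout genotype was also the one with the highest sums of endoderm and trophoblast markers. Dab2 and Krt18 weighed most in those sums. Whether the sums stem from other cell types, and the part of such cells in the result, was not tested. In bulk RNA, fewer cells of a type and less RNA per cell cannot be told apart. Without Dux KO replicate 1, Peg3 passed in Dux KO vs WT (limma adjusted p = 0.0420). With DESeq2 it passed in Dux KO (1.27, adjusted p = 0.00887) and in Double KO (1.14, adjusted p = 0.0234). With the samples of a shifted chromosome left out it passed in Double KO (1.21, limma adjusted p = 0.0214). Tet TKO had 692, 688 and 703 CPM, and quad KO had 694, 743 and 874 CPM, which overlapped.

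Usp29 starts beside Peg3, in the window printed above. Its levels were 2.86, 2.83 and 2.52 CPM in WT and 3.73, 3.09 and 2.53 CPM in Smchd1 KO. Dux KO had 1.27, 3.91 and 2.36 CPM. Double KO had 0.743, 2.20 and 5.70 CPM, with 12, 36 and 96 reads, so the replicate with the highest Peg3 had the lowest Usp29. Over the 9 pairs of replicates within the 3 knockout genotypes, Peg3 and Usp29 had the same order in 2, whereas Peg3 and Zim1 had it in 8. Over the 45 pairs of the 10 genes, such counts ranged from 1 to 8, and the genes share their libraries. Usp29 in quad KO was at 1.64, 1.03 and 2.87 CPM, against 2.65, 2.59 and 3.21 CPM in Tet TKO. The difference of -0.57 had an interval of -1.19 to 0.04 (limma adjusted p = 0.128). Without quad KO replicate 3 it was -0.87 (limma adjusted p = 0.00205). In that fit 7520 of all genes passed, against 5619 with every sample.

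Peg10 and Sgce lie head to head on chromosome 6. Peg10 derives from a retrotransposon and is needed for the placenta. Sgce encodes epsilon-sarcoglycan. Peg10 varied more between replicates of a knockout than between the WT and knockout means. Its WT levels were 1027, 1059.6 and 1041 CPM. Smchd1 KO had 1453, 697 and 1845 CPM, Dux KO 424, 297 and 1366.5 CPM, and Double KO 4804, 1342 and 525 CPM. Every knockout genotype of this table thus had samples on both sides of WT, and the highest Double KO sample was 9.16 times the lowest. No difference from WT passed, with intervals from -1.29 to 1.77 for Smchd1 KO, from -2.44 to 0.62 for Dux KO and from -1.0 to 2.06 for Double KO (limma adjusted p 0.893, 0.434 and 0.689).

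Sgce moved with Peg10 between most replicates. It was at 16.3, 18.0 and 17.0 CPM in WT and at 29.4, 15.6 and 36.3 CPM in Smchd1 KO. Dux KO had 8.28, 15.5 and 27.7 CPM and Double KO 40.5, 37.4 and 10.4 CPM. Sgce had the same order as Peg10 in 8 of the 9 replicate pairs. It did not pass against WT either (limma adjusted p 0.611 in Smchd1 KO, 0.876 in Dux KO and 0.544 in Double KO). The samples of highest Peg10, Smchd1 KO replicate 3, Dux KO replicate 3 and Double KO replicate 1, had the highest endoderm and trophoblast sums given above. The part of other cells in the result was not tested.

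The median gene of chromosome 6 differed from WT by -0.46 in Smchd1 KO replicate 2, -0.23 and -0.44 in Dux KO replicates 1 and 2, -0.10 in Double KO replicate 1 and -0.49 in Double KO replicate 3. Low Peg10 samples were among these. Peg10 differed from the WT mean by -0.58, -1.30, -1.81, 2.20 and -0.99 in the same 5 samples. After the chromosome 6 median was subtracted, the values were -0.12, -1.07, -1.38, 2.31 and -0.50. The spread between replicates thus remained after the subtraction in Dux KO and Double KO. With the 4 samples of a shifted chromosome left out, 1 Dux KO sample remained and was assumed to vary like the other groups. Sgce then passed in Smchd1 KO (0.91, limma adjusted p = 0.00990), Dux KO (-1.0, 0.00337) and Double KO (1.17, 0.00111) vs WT.

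**Figure D2:**
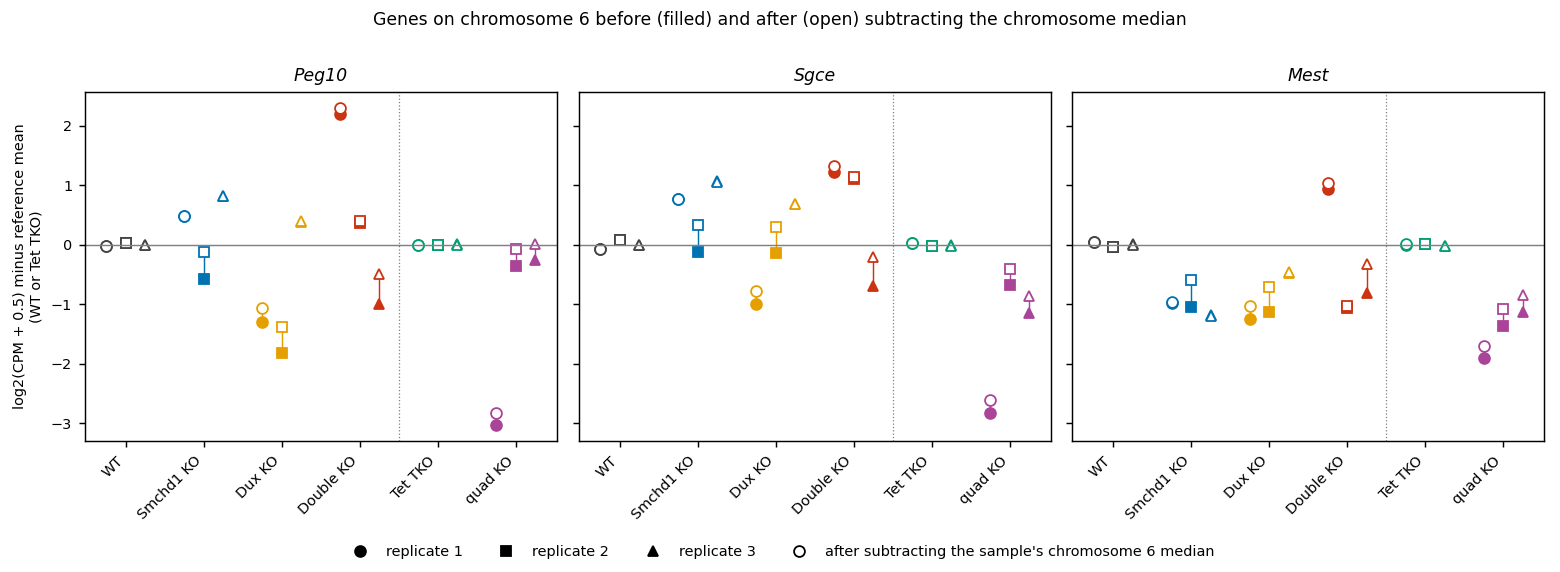
Log2(CPM + 0.5) of Peg10, Sgce and Mest in each sample minus the mean of WT (first 4 genotypes) or Tet TKO (last 2), before (filled) and after (open) subtracting that sample's median over chromosome 6 genes. Peg10 in Double KO replicate 1 lies 2.20 above WT before and 2.31 after; quad KO replicate 1 lies -3.04 from Tet TKO before and -2.82 after.

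Both genes were lower in every quad KO sample than in every Tet TKO sample. Peg10 was at 2521, 2509 and 2552 CPM in Tet TKO and at 308, 1982.5 and 2115 CPM in quad KO. Replicate 1 alone was far below the others. The difference of -1.21 (interval -2.73 to 0.30) did not pass (limma adjusted p = 0.180). Without quad KO replicate 1 it was -0.30 and passed (limma adjusted p = 0.00357), as it did without replicate 3 (-1.69, 0.0290). Sgce was at 13, 12.5 and 12.7 CPM in Tet TKO and at 1.37, 7.74 and 5.49 CPM in quad KO. It fell by 1.55 on the log2 scale (interval -2.65 to -0.45, limma adjusted p = 0.0352). That call ended without any 1 Tet TKO replicate (0.0959 to 0.106), with chromosome medians centred (-1.29, 0.0743) and with DESeq2 (0.0865). The chromosome 6 median itself differed from Tet TKO by -0.21, -0.28 and -0.27 in the 3 quad KO samples.

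Mest, further along chromosome 6, encodes a protein of the alpha/beta hydrolase family. Its WT levels were 254, 239.7 and 249 CPM. It was at 126, 119.9 and 109 CPM in Smchd1 KO and at 103, 112 and 178 CPM in Dux KO, all below WT. Double KO had 475, 118 and 140.0 CPM, with 1 sample above and 2 below WT. The differences did not pass: -1.06 in Smchd1 KO (interval -1.93 to -0.20, limma adjusted p = 0.227) and -0.96 in Dux KO (interval -1.82 to -0.09, limma adjusted p = 0.158). Double KO replicate 1 decided both, since without it they passed (limma adjusted p = 0.0164 and 0.0229). Its spread enters the fit although it is in neither comparison. Without that replicate 205 and 848 of all genes passed, against 144 and 644 with every sample. Tet TKO had 458, 462 and 454 CPM and quad KO 121, 178 and 209.95 CPM. The fall of Mest in quad KO was 1.47 on the log2 scale (interval -1.86 to -1.07, limma adjusted p = 0.000610), and all 3 samples were below all Tet TKO samples. This call held under all 15 alternatives run.

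Grb10 encodes an adaptor that restrains insulin and growth factor signalling. It was at 434, 429 and 436 CPM in WT and at 337, 549.5 and 371 CPM in Smchd1 KO. Dux KO had 323, 35.7 and 54.7 CPM, and Double KO 81.1, 284 and 47.7 CPM. All 6 Dux KO and Double KO samples were below all WT samples. The highest of each genotype, Dux KO replicate 1 and Double KO replicate 2, were the 2 samples of these genotypes with Dux reads. Those were only 6 and 4 reads, and a link between Dux and Grb10 was not tested. The differences from WT, -2.33 in Dux KO (interval -3.89 to -0.76, limma adjusted p = 0.0821) and -2.06 in Double KO (interval -3.63 to -0.49, limma adjusted p = 0.126), did not pass and share the WT samples. Without Dux KO replicate 1 they were -3.28 (0.0181) and -2.06 (0.0485) by the same test. Without Double KO replicate 2, the Dux KO difference passed too (0.0461). The difference in Double KO vs Smchd1 KO was -1.98 (interval -3.55 to -0.41, limma adjusted p = 0.120). It passed without Dux KO replicate 1 (0.0339) and, at -2.71, without Double KO replicate 2 (0.0400). Of all genes, 1659 and 1384 passed in these fits, against 709 with every sample. In the other table Grb10 rose from 201, 209 and 202 CPM in Tet TKO to 392, 354 and 351 CPM in quad KO. This was 0.84 on the log2 scale (interval 0.72 to 0.95, limma adjusted p = 5.32e-05), held under all 15 alternatives run, and was the only rise among the 10 genes there that passed.

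Plagl1 encodes a zinc finger transcription factor that restrains growth. Its WT levels were low and close together, 3.69, 3.80 and 3.61 CPM. Smchd1 KO had 1.01, 3.57 and 0.505 CPM, Dux KO 3.73, 1.72 and 4.39 CPM, and Double KO 8.35, 1.53 and 22.2 CPM. The highest Double KO sample was 14.5 times the lowest, the widest ratio of the 10 genes in the WT table. Plagl1 did not pass against WT (limma adjusted p 0.428 in Smchd1 KO, 0.869 in Dux KO and 0.520 in Double KO). Against Smchd1 KO, Double KO differed by 2.01 (interval 0.45 to 3.58, limma adjusted p = 0.115), and without Double KO replicate 2 it was 2.95 and passed (0.0152). In that fit 1384 of all genes passed, against 709 with every sample. Tet TKO had 30.7, 28.0 and 26.8 CPM and quad KO 10.6, 10.6 and 11.0 CPM. Plagl1 fell by 1.37 on the log2 scale (interval -1.54 to -1.19, limma adjusted p = 3.50e-05), the smallest p of the 10 genes, and the call held under all 15 alternatives run.

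Impact encodes an inhibitor of the amino acid sensing kinase GCN2. It was at 145, 138 and 146 CPM in WT, at 98.1, 124 and 106 CPM in Smchd1 KO, at 241, 159 and 267 CPM in Dux KO and at 233, 119 and 263 CPM in Double KO. Smchd1 KO samples were all below WT and Dux KO samples all above. Neither difference passed (-0.39, limma adjusted p = 0.478, and 0.60, limma adjusted p = 0.175). In Double KO vs Smchd1 KO the difference was 0.83 (interval 0.26 to 1.40, limma adjusted p = 0.0826), and it was 1.18 and passed without Double KO replicate 2 (0.00865). So did 1384 of all genes in that fit, against 709 with every sample. Quad KO, at 183, 192 and 205 CPM, was below Tet TKO, at 215, 214 and 213 CPM. The fall of 0.15 on the log2 scale (interval -0.26 to -0.04) passed narrowly (limma adjusted p = 0.0440). It ended without any 1 Tet TKO replicate (0.116 to 0.136), without quad KO replicate 1 (-0.11, 0.123) or 2 (-0.14, 0.0668), and with the other settings listed in the closing section.

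Nnat encodes neuronatin, a small membrane protein. WT had 17.1, 19.6 and 17.8 CPM. Smchd1 KO had 5.41, 7.53 and 11.4 CPM, all lower. Dux KO had 10.1, 6.11 and 25.3 CPM and Double KO 27.2, 12 and 9.98 CPM, on both sides of WT. The Smchd1 KO difference of -1.17 (interval -2.18 to -0.16) did not pass (limma adjusted p = 0.249). Tet TKO had 9.90, 9.68 and 8.88 CPM. Quad KO had 5.45, 0.0353 and 1.18 CPM, which were 163, 1 and 33 reads. Nnat fell by 2.51 on the log2 scale (interval -4.20 to -0.83, limma adjusted p = 0.0287), and this call ended without any 1 Tet TKO replicate (0.0834 to 0.0921), with edgeR (0.0673) and with DESeq2 (0.253).

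Counted by comparison, the 10 genes seldom passed in the WT table. In Smchd1 KO vs WT, 0 of 10 passed with limma, against 0.889% of all 16200 genes. With edgeR 0 of 10 passed, against 230 of all genes, and with DESeq2 0 of 9, against 1082. DESeq2 gave no adjusted p for Grb10 in any comparison of this table. An unadjusted limma p under 0.05 was found for 4 of the 10 and for 2660 of all genes. Groups did not overlap for 6 of 10 genes, against 57.7% of all genes. Nnat, Mest, Plagl1 and Impact were lower and Zim1 and Peg3 higher. In a fit of WT and Smchd1 KO alone, 5 of 10 passed (Peg3 and Zim1 higher, Mest, Impact and Nnat lower), as did 6763 of all genes tested. In Dux KO vs WT, 1 of 10 passed, against 3.98% of all genes, and groups did not overlap for 5, against 39.6%. Without Dux KO replicate 1 the count was 3, against 703 of all genes. Without Double KO replicate 1 or 2 it was 2, against 848 and 1275. Without WT replicate 1, 2 or 3 it was 0, against 2, 16 and 2 of all genes. It was also 0 without Dux KO replicate 2, against 95. Double KO vs WT had 1 of 10 passing, against 1.57%, and groups did not overlap for 3, against 36.2%. That count was 2 without Dux KO replicate 1, against 603 of all genes. It was 0 without any 1 of the replicates named for Zim1 above, each left out in turn. Over all genes, 2, 7 and 2 passed without WT replicate 1, 2 or 3. Without Smchd1 KO replicate 1 or 2, 57 and 78 passed, and without Double KO replicate 1 or 2, 83 and 158.

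Between the knockouts of this table no gene of the 10 passed. In Double KO vs Dux KO, which shows the loss of Smchd1 where Dux is also lost, 0.0123% of all genes passed. Of the 10, 0 had an unadjusted limma p under 0.05, against 1583 of all 16200 genes. With edgeR or DESeq2, 0 of the 10 passed, against 2 and 220 of all genes. The interval for Zim1 there was -0.40 to 0.47 and that for Peg10 was -0.10 to 2.96. Of all genes, 4.38% passed in Double KO vs Smchd1 KO. Of the 10, 4 had an unadjusted limma p under 0.05, as did 4064 of all 16200 genes. With edgeR 1 passed (Zim1), as did 897 of all genes. With DESeq2 3 passed (Zim1, Plagl1 and Impact), as did 2456 of all genes. With limma, Zim1 passed without Dux KO replicate 3 (0.0486) or Double KO replicate 3 (0.0243). Of all genes, 1855 and 2422 passed in these fits. The difference of the Smchd1 effect between Dux KO and WT backgrounds was tested as an interaction, and 0.512% of all genes passed. Of the 10, 3 had an unadjusted limma p under 0.05, as did 2818 of all genes. With edgeR 0 of the 10 passed, against 7 of all genes, and with DESeq2 1, Mest, against 946. Without Double KO replicate 2, the interaction passed for Plagl1 (3.18, limma adjusted p = 0.0339) and Mest (2.08, limma adjusted p = 0.0403). In that fit it passed for 1216 of all 16072 genes, against 83 with every sample.

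In quad KO vs Tet TKO, 6 of 10 genes passed, against 37.7% of all 14920 genes, and groups did not overlap for 7, against 53.3%. Grb10 was higher, and Nnat, Sgce, Mest, Plagl1 and Impact were lower. Over the 10 genes the median difference was -0.89, against -0.01 over all genes tested. The calls of Grb10, Mest and Plagl1 held under all 15 alternatives, and without any 1 Tet TKO replicate only these 3 remained. Trophoblast marker sums were 162 to 319.98 CPM in quad KO and 143 to 147 CPM in Tet TKO. ES cell marker sums were 1593 to 1816.5 and 2325 to 2398 CPM. Within these, Nanog was at 30.8 to 65.0 CPM in quad KO against 252 to 276, and Esrrb at 27.1 to 79.9 against 180.1 to 180.3. Klf4 (30.1 to 47.6 against 124 to 133), Zfp42 and Sox2 were lower too. Pou5f1 was slightly lower (694 to 718 against 733 to 740), and Dppa5a was higher (480 to 545 against 395 to 438). Krt18 carried the trophoblast sum, at 118 to 246 CPM in quad KO and 89.5 to 92.3 in Tet TKO. Cdx2 (17.3 to 29.4 against 7.26 to 8.04 CPM) and Krt7 (12.9 to 21.7 against 7.74 to 8.51) were higher too. Gata3 (6.96 to 13.7 against 27.2 to 27.6 CPM) and Eomes (6.32 to 8.66 against 8.78 to 9.98) were lower, as was Elf5, which was near 0 in both. Neural marker sums were 89.9 to 106 CPM in quad KO and 76.2 to 79.4 in Tet TKO, fibroblast sums 26.85 to 29.9 and 16.5 to 17.1, and mesoderm sums 14.0 to 17.6 and 8.75 to 9.78. The part of these shifts in the result was not tested.

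**Figure D3:**
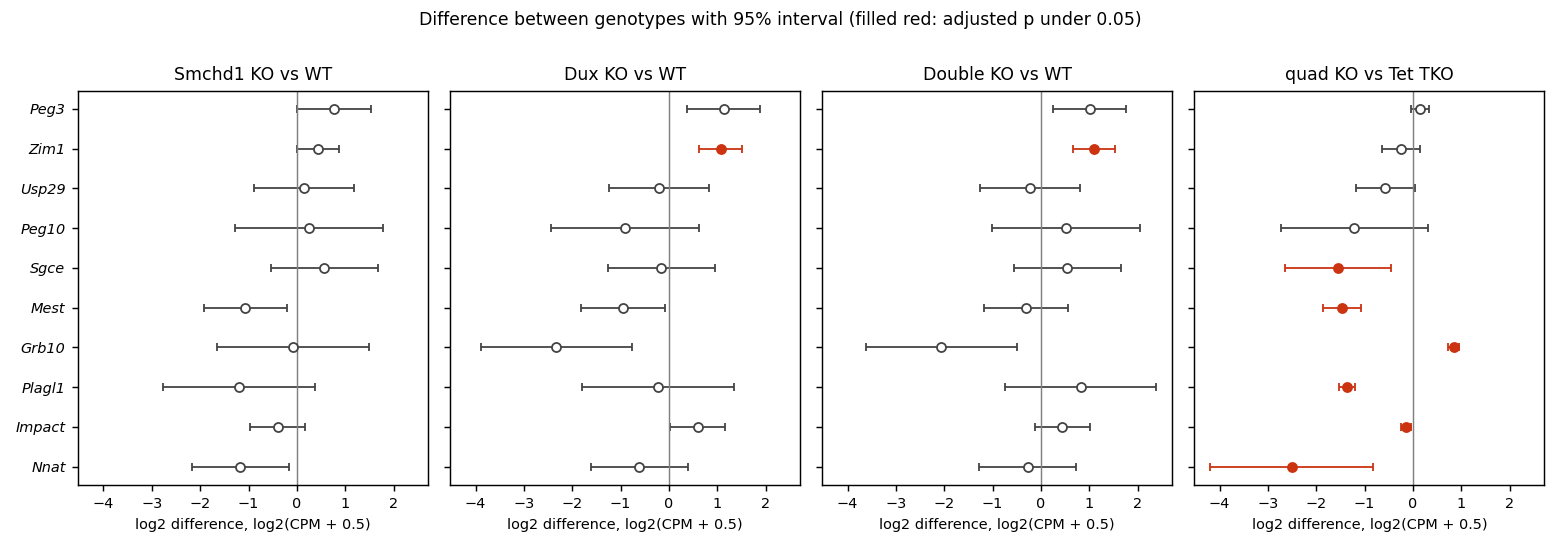
Difference between genotypes for each of the 10 genes on the log2(CPM + 0.5) scale (points) with its 95% interval (bars). Filled red points passed at an adjusted p under 0.05. Zim1 alone is filled in Dux KO and Double KO vs WT, none in Smchd1 KO vs WT, and 6 are in quad KO vs Tet TKO.

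The replicates of Smchd1 KO, Dux KO, Double KO and quad KO differed widely in many of these genes, while WT and Tet TKO replicates did not. The highest replicate was over 2-fold above the lowest, on the log2(CPM + 0.5) scale, for 0 of the 10 genes in WT (0.0247% of all genes) and 0 in Tet TKO (0.0603%). Of the knockouts, Smchd1 KO had 4 such genes (2.68% of all genes), Dux KO had 7 (20.4%), Double KO had 9 (20.4%) and quad KO had 4 (2.69%). Peg10 and Sgce were among the 4 in Smchd1 KO, where chromosome 6 was shifted in replicate 2. With the chromosome 6 median subtracted, Peg10 was at 0.49, -0.12 and 0.81 from the WT mean there, and Sgce at 0.78, 0.33 and 1.05. Both then spanned under 2-fold. In Dux KO, Double KO and quad KO they still spanned over 2-fold. The counts and SDs given here are without the subtraction. The SD over 3 replicates had a median of 0.40 over the 10 genes and 0.12 over all genes in Smchd1 KO. The same pair of medians was 0.68 and 0.30 for Dux KO, 1.08 and 0.31 for Double KO and 0.34 and 0.13 for quad KO. For WT both were 0.05, and for Tet TKO they were 0.03 and 0.06.

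The same was seen among genes of like level, within 0.5 of a gene's mean on the log2 scale. In Double KO, 9 of the 10 genes had a larger SD than 90% of such genes. There were 6 in Smchd1 KO, 5 in Dux KO, 6 in quad KO, 2 in WT and 1 in Tet TKO. Zim1 was the exception in Double KO, with an SD larger than that of 25.1% of like genes, and in Dux KO it was at 7.84%. Plagl1 was at 3.78% in quad KO. Technical runs were made of WT and Smchd1 KO replicates only. There the largest fold between runs of a replicate was 1.06 for Grb10, 1.07 for Peg10 and 1.08 for Mest and Sgce. It was 1.56 for Plagl1 and 1.75 for Zim1, the gene with fewest reads. For Zim1 this is above the ratio of the highest to the lowest replicate in all 4 genotypes of that table, which was 1.25 in Dux KO, 1.32 in WT, 1.45 in Smchd1 KO and 1.53 in Double KO. No one replicate was the highest in all genes. Dux KO replicate 3 was highest for 8 of the 10 and Double KO replicate 1 for 5, and both had the high endoderm and trophoblast sums given above.

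**Figure D4:**
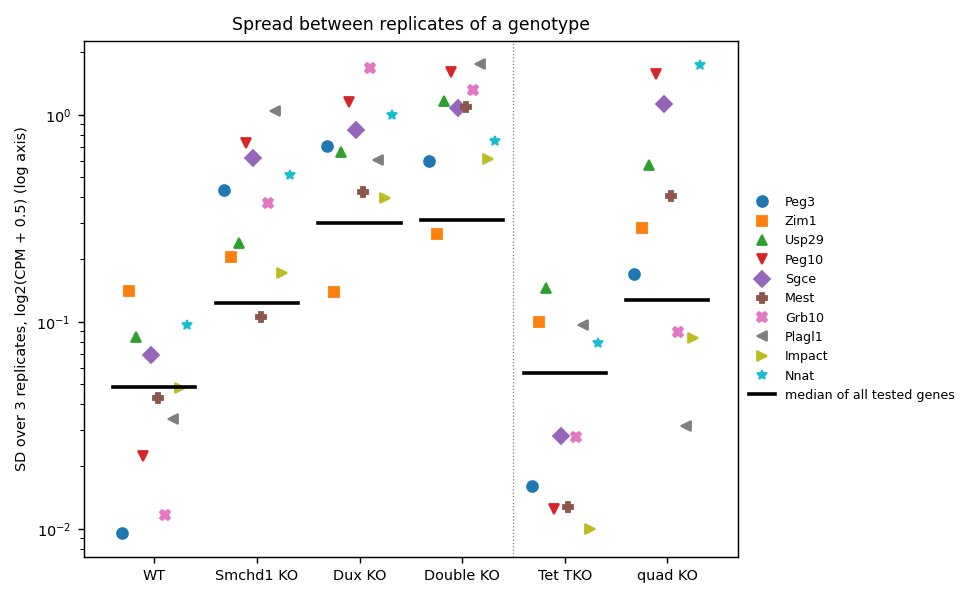
SD over the 3 replicates of each genotype on the log2(CPM + 0.5) scale (log axis), 1 symbol per gene, with the median over all tested genes as a black line. In Double KO 9 of the 10 genes lie above that line and Zim1 below, and in Tet TKO the members' median is 0.03 against 0.06.

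Sequencing noise was set beside these differences over all genes. The noise ratio, the squared difference between 2 libraries relative to counting error, was 1.25 to 3.06 between WT replicates and 2.26 to 2.86 between runs of a replicate. Tet TKO replicates had ratios of 1.39 to 1.74. The ratios were 3.62 to 10.6 for quad KO, 15.7 to 30.1 for Dux KO and 16.7 to 30.3 for Double KO. Whether the WT and Tet TKO replicates were grown apart is not given in the sources used here.

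Other genes of the same chromosomal neighbourhoods were read from a list of 27 names, of which 22 were in the tables and 17 were tested. None passed in any comparison of the WT table, with a median difference of 0.02 in Smchd1 KO, -0.21 in Dux KO and -0.01 in Double KO vs WT. In quad KO vs Tet TKO, 3 rose and 8 fell (median -0.15). Next to Grb10, Cobl, which encodes an actin nucleator, fell 4.81-fold (172 ± 5.12 CPM in Tet TKO and 36.3 ± 10.1 in quad KO, SD, n = 3, limma adjusted p = 0.000100), and Ddc, which encodes the enzyme that makes dopamine, fell 2.60-fold (limma adjusted p = 0.000202). Grb10 itself rose. In the Peg10 domain, Pon3 fell 2.54-fold (limma adjusted p = 0.00320), and Calcr rose 1.72-fold (0.00272). Next to Mest, Tsga14 fell 1.74-fold (limma adjusted p = 0.00317) and Klf14 rose 1.57-fold (0.0153).

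Among other imprinted genes, 48 of 54 names were in the tables, 39 were tested in the WT table and 38 in the other. Zdbf2 fell 2.71-fold in Smchd1 KO vs WT, from 345 ± 14.1 to 129 ± 28.1 CPM (SD, n = 3, limma adjusted p = 0.0315). In Dux KO vs WT 3 genes fell, which were H19 (13.2-fold, 0.00598), Phlda2 (2.48-fold, 0.0482) and Gab1 (1.43-fold, 0.0442), by limma's adjusted p. None passed in Double KO vs WT or vs Dux KO. Between Double KO and Smchd1 KO, Zdbf2 rose (2.92-fold, limma adjusted p = 0.0123) and Ascl2 fell (2.06-fold, 0.0430). Of the 38 tested in the other table, 11 rose and 16 fell in quad KO. The largest folds there were falls of H19 (17.3-fold), Rian (13.2), Meg3 (11.2), Mirg (8.05) and Xist (6.55) and a rise of Igf2 (2.99), with limma adjusted p of 0.0277, 0.0494, 0.0460, 0.0282, 8.72e-06 and 0.00912. Like the genes above, H19 spread between quad KO replicates, from 2.19 to 131 CPM against 262 to 281 in Tet TKO.

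Of the genes known to write, read or keep imprints, 18 or 19 were tested in the WT table. The only call against WT was Dnmt3a, a de novo DNA methyltransferase, which fell 2.46-fold in Dux KO (371 ± 3.75 to 152 ± 29.6 CPM, SD, n = 3, limma adjusted p = 0.00655). Its interaction passed as well (1.39, limma adjusted p = 0.0358). Zfp57 and Trim28 did not pass in any comparison of that table. In quad KO vs Tet TKO, 15 were tested and 6 fell, among them Dnmt3a (2.26-fold), Dnmt3l (1.87), Ctcfl (1.67), Uhrf1 (1.34) and Trim28 (1.25). Dnmt3b rose 1.14-fold. These lists are described by their counts, and nothing is drawn from them about the 10 genes.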

How the data were processed

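RNA was depleted of ribosomal RNA with a RiboErase kit, per the labels' protocols. The submitters' processing notes name Trim Galore, STAR 2.5.1, limma 3.38.2 and build mm9. The read counter, its annotation and whether it used strand are not given in the sources used here, so reads of overlapping genes cannot be told apart. Each deposited table gives a signal per gene that the authors had normalized and named CPM, with column totals of 906871 to 1054029. Whole reads were recovered from the smallest step of each library (below 200 reads, 100% of the values came out whole to within 0.1 read). The second table holds 3 columns of WT values that match no sample here. They were not used, so Tet TKO was not compared with WT. The 6 Smchd1 KO columns do not name their replicate and were joined into 3 pairs by their noise ratio (1.81 to 2.32 within pairs, 3.14 to 12.8 otherwise).

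Technical runs were averaged. A gene was kept if 3 or more samples of a table reached 0.5 CPM. Log2(CPM + 0.5) was fitted with limma 3.58.1 in R 4.3.3, all genotypes of a table together, with an intensity trend. Tests were two-sided, with Benjamini-Hochberg adjustment over all kept genes and a threshold of 0.05. A difference on this scale understates the change of low genes. Intervals are 95% and depth limits precision for Zim1, Usp29, Plagl1 and Nnat. Alternatives used edgeR 4.0.16 and DESeq2 1.42.0 on recovered reads with runs summed, other pseudocounts (0.1, 2), no filter or 2 CPM, quantile normalization, a replicate block, 2 genotypes alone, single runs, centred chromosome medians, samples with a shifted chromosome left out, and each replicate left out. The tests were checked on simulated counts. Chromosomes and exon lengths came from GENCODE M21 (GRCm38), to which 87.4% of the IDs matched. Genes named are all 10 members, and from the lists those that passed, at most 6 per comparison by fold. The members and lists were chosen with earlier results of these data known.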

Additional observations from a re-analysis of the deposited data

How the results depend on the processing

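No difference that passed reversed under any alternative. Of the values of the 10 genes under the alternatives (1639 in all), 1561 kept their side of the threshold, 40 newly passed, 32 ceased to pass and 6 had no adjusted p (Grb10 with DESeq2 in the WT table). In 64 a difference that did not pass changed sign, for 23 of the 70 differences. The number of the 10 genes that passed changed as follows, and the cause was not tested. In Smchd1 KO vs WT it went from 0 to 5 with these 2 genotypes alone and to 1 with the samples of a shifted chromosome left out. In Dux KO vs WT it went from 1 to 2 with DESeq2, with 2 genotypes alone and with shifted samples left out. For Double KO vs WT it went from 1 to 0 with no filter, to 2 with DESeq2 and to 4 with shifted samples left out. Against Dux KO, Double KO went from 0 to 2 with shifted samples left out. Against Smchd1 KO, Double KO went from 0 to 1 with edgeR, with technical run 1 alone and with shifted samples left out, and to 3 with DESeq2. For the interaction it went from 0 to 1 with DESeq2 and with shifted samples left out. In quad KO vs Tet TKO it went from 6 to 4 with edgeR and to 3 with DESeq2, against 5708 and 5367 of all genes. Single calls also ended there with no filter, a pseudocount of 0.1, centred chromosome medians or the replicate block, as given for each gene. Without each replicate in turn, the counts against WT ranged from 0 to 1 (Smchd1 KO), from 0 to 3 (Dux KO) and from 0 to 2 (Double KO). They ranged from 0 to 0 in Double KO vs Dux KO, 0 to 3 in Double KO vs Smchd1 KO, 0 to 2 for the interaction and 3 to 8 in quad KO vs Tet TKO. Zim1 in Double KO vs WT also ended with no filter (adjusted p = 0.0588 by limma). Impact in quad KO vs Tet TKO ended with no filter (0.0668), edgeR (0.0577) and DESeq2 (0.0850), and Nnat with a pseudocount of 0.1 (0.0534). With the replicate block, Impact ended too (limma adjusted p = 0.0712), the count there was 5, and no other call changed. The labels do not say that a number pairs samples, and deviations of same-numbered samples correlated from -0.42 to 0.47 in the WT table and from -0.03 to 0.02 in the other. Over all genes, DESeq2 called 1082 in Smchd1 KO vs WT, 2606 in Dux KO vs WT, 2008 in Double KO vs WT, 220 in Double KO vs Dux KO and 2456 in Double KO vs Smchd1 KO, against 144, 644, 255, 2 and 709. With shifted samples left out, these were 2714, 5394, 6703, 3307 and 5671. The 2 genotypes alone gave 6763 in Smchd1 KO vs WT. Two-genotype fits for the interaction, and run or shifted-sample settings for the second table, gave no separate value.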

Other observations

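The genes whose pattern over the 12 samples of the WT table was most like that of a member are given with Pearson's r on log2(CPM + 0.5), as a description with no test, over samples that share their libraries. Peg10 was most like Hand1 (r = 0.96), which encodes a transcription factor of the trophoblast and heart, and Tes (0.96) and Fam131b (0.95), both on chromosome 6. Hand1 was at 1.94 to 2.42 CPM in WT and at 19.1, 3.61 and 0.772 CPM in Double KO replicates 1, 2 and 3. Peg3 was most like Qsox1 (0.97), Soat1 (0.96) and Zcchc6 (0.95). Zim1 was most like Nos1ap (0.96), Gm9429 (0.95) and Iqgap1 (0.95). Plagl1 was most like Bcl3 (0.95), Phf3 (0.93) and Chd1 (0.92), and Grb10 was most like Gipc1 (0.88), 0610005C13Rik (0.88) and Gm9905 (0.86).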
